A study of Mus musculus with 12 samples.

Results

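The loci described here are single-exon intergenic loci of the mouse genome that the reference annotation used by the authors did not hold. They were chosen by structure alone, from the deposited merged transcript models: every transcript of the locus had to carry the class code u, which marks a transcript outside all reference genes, and every transcript had to consist of 1 exon. This rule took 9831 of 40039 merged loci, and these 9831 loci are called members below. Another 2934 loci were unannotated and intergenic but had a spliced transcript, and 27274 loci held a transcript of another class and are called known loci. No measured level was used to choose the members.

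RNA was read from mouse embryonic stem cells of C57BL/6J origin in 4 groups of 3 biological replicates: wild-type cells at day 0 (undifferentiated), wild-type cells at day 6, Notch1-/- cells at day 0 and Notch1-/- cells at day 6. Notch1 is a cell-surface receptor that passes signals between neighbouring cells and takes part in cell fate choice. The stem cells grew with LIF at 1000 U/ml on feeders of mouse embryonic fibroblasts or on gelatin, and the labels do not say which surface each library came from. Differentiation towards heart cells was started for both lines in hanging drops of 1000 cells. Which bases of Notch1 are deleted, how, and whether each line is 1 clone is not given in the sources used here.

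Transcript assembly from reads that follow poly(A) selection returns many single-exon pieces that lie outside annotated genes. Such pieces are known to come from several sources: unspliced RNA of enhancers and promoters, transcripts that run on past a gene's end, pieces of long transcripts too thinly covered to be joined, repeat-derived transcripts, and processed pseudogenes. A processed pseudogene is an intron-less copy of a gene's mRNA that was written back into the genome, and reads of a near-identical pair may be placed on either copy.

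Of the 86 members with a mean of at least 100 CPM (depth-scaled counts), 38 had flanking genes between which RefSeq could be searched, and 37 of these intervals held an annotated pseudogene. For that reason 4 pseudogenes and their parent genes are shown here before the values. Each pseudogene is the single RefSeq pseudogene between the same flanking genes as a member. The sequences are GENCODE M21 transcript sequences (build GRCm38), 5′ to 3′, 150 bases each, and capitals mark the bases that differ between the copies. They were chosen after the values of these members had been seen, and the members' own bases could not be read, because the files use build mm9. The Tdgf1 pair differed at 2 bases in this window, the Dppa5a pair at 6, the Odc1 pair at 2 and the Sord pair at 1.
Tdgf1-ps1: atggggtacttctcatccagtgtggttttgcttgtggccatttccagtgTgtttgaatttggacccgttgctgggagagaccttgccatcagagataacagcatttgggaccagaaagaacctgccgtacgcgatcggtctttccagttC
Tdgf1: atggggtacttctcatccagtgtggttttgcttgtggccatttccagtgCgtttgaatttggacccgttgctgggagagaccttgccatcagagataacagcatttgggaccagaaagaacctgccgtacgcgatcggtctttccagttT
Gm6083: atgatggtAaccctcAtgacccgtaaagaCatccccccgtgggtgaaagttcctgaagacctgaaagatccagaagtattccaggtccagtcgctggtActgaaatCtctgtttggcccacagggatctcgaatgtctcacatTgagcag
Dppa5a: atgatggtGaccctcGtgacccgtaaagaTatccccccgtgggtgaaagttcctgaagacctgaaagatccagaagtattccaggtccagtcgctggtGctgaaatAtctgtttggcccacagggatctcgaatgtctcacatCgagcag
Gm7993: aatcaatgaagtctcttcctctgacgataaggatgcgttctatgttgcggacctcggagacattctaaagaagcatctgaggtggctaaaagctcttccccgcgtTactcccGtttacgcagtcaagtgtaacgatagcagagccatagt
Odc1: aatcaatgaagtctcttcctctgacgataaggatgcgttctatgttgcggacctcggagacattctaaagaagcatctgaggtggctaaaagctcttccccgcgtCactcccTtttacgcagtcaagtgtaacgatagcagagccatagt
Gm6652: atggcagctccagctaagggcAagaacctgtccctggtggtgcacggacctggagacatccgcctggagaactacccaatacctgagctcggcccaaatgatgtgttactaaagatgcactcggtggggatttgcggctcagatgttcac
Sord: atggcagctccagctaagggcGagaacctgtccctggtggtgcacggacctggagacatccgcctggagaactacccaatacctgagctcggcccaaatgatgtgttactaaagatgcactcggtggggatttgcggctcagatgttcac

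The deposited counts summed to between 100637179 and 134662426 per library. Levels below are CPM, counts scaled by edgeR's TMM-adjusted library sizes. As a check of the labels, the locus linked to Notch1 ran from 24.7 to 61.6 CPM over the 6 wild-type libraries and from 3.80 to 6.80 CPM over the 6 Notch1-/- libraries, so the lines did not overlap and the locus was not at 0 in Notch1-/-. Of 10 pluripotency genes 7 could be linked, and their summed level was 1652 to 2225 CPM in wild type and 1455 to 2697 CPM in Notch1-/- at day 0, against 291 to 385 and 470 to 684 CPM at day 6. Feeder fibroblast genes, 19 of 20 linked, summed to 1629 to 4928 CPM in wild type and 882 to 3780 CPM in Notch1-/- at day 0. At day 6 they summed to 1157 to 1549 CPM in wild type and 128 to 173 CPM in Notch1-/-. These genes did not move alike, so the sum is not a measure of feeder cells alone. Col1a1 had means of 504 CPM at day 0 and 735 CPM at day 6 in wild type, and 28.5 CPM in Notch1-/- at day 6. Lox had 217 and 1.32 CPM in wild type, and 1.89 CPM in Notch1-/- at day 6. Over time in wild type 2 of the 19 were called higher and 13 lower. In pooled cells, fewer cells of a type and less RNA per cell cannot be told apart.

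Members were short. Their exon length ran from 101 to 18614 bases, with a median of 1159 bases and quartiles of 778 and 1799 bases. Of the 9831 members 9817 carried no strand, 27 had 2 transcripts, and 19 shared exon bases with another locus. Reads from the strands of such a locus cannot be told apart.

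Members crowded the 5′ edge of known loci. The median distance to the nearest known locus was 8806 bases, with quartiles of 1091 and 38051.5 bases, and 1249 members lay inside the outer limits of a known locus. Under 1000 bases from an edge, 871 members lay 5′ of the known locus and 289 lay 3′ of it, so 75.1% of those with a side were on the 5′ side. From 1000 to under 5000 bases the counts were 835 and 751 (52.6% on the 5′ side). Within that range the bin from 1 to 2 kb held 291 and 124, and the bins from 2 to 5 kb held more on the 3′ side (232 and 250, 169 and 213, 143 and 164). From 5000 to under 20000 bases 1143 lay 5′ and 1170 lay 3′ (49.4%). At 100000 bases or more 532 members lay 5′ and 581 lay 3′ (47.8%). The spliced intergenic loci leaned the same way: of those under 1000 bases from an edge, 317 lay 5′ and 97 lay 3′ (76.6%).

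**Figure D1:**
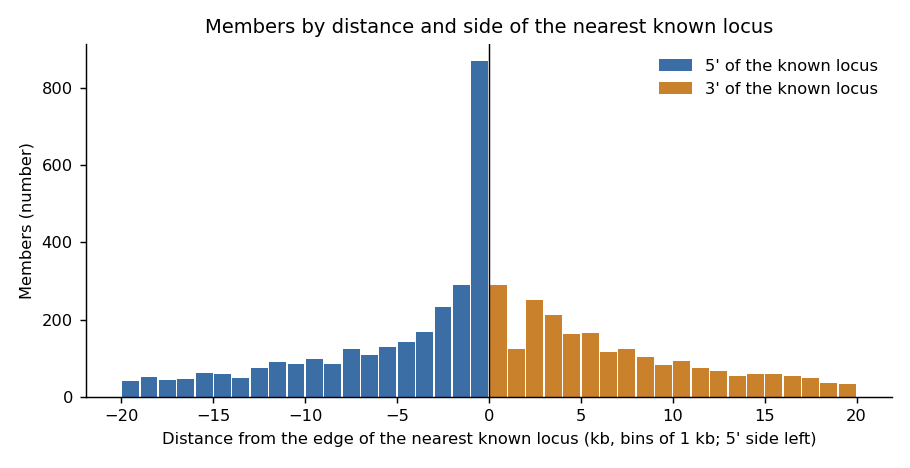
Number of members in 1-kb bins of distance (x axis, kb) from the edge of the nearest known locus, 5′ side left and 3′ side right, out to 20 kb. The first bin holds 871 members on the 5′ side and 289 on the 3′ side, the bin from 1 to 2 kb holds 291 and 124, and each bin from 2 to 9 kb holds fewer members on the 5′ side.

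Length, distance and level went together. Median length was 1402.5 bases for members under 1000 bases from a known locus and 992 bases for those at 100000 bases or more. The median of the mean CPM was 0.0324 for members of 500 to under 1000 bases and 0.401 for members of 4000 bases or more, without correction for length. Members under 500 bases had a higher median, 0.0772 CPM, and lay farther from known loci, at a median of 21477.5 bases.

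Most members were near the limit of detection, and a few carried nearly all of the signal. The median member had a mean of 0.0549 CPM over the 12 libraries, and 6779 members (69.0%) had a mean under 0.1 CPM and together took 0.644% of all member counts. At the other end, 287 members (2.92%) had a mean of at least 10 CPM and took 94.97% of member counts, and 86 of these had at least 100 CPM and took 80.9%. No count at all was recorded for 13 members. The median was 0.188 CPM for the spliced intergenic loci and 0.454 CPM for known loci, without correction for length.

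All members together took 4.13% to 4.82% of the counts of a library. The share was 4.42%, 4.82% and 4.63% in wild type at day 0 and 4.34%, 4.44% and 4.13% at day 6. The Notch1-/- libraries gave 4.80%, 4.74% and 4.67% at day 0 and 4.75%, 4.47% and 4.41% at day 6. For all members the libraries of the groups overlapped in all 4 pairwise comparisons, and no exact two-sided permutation test over libraries passed (p = 0.2 for wild type over time, 0.3 for Notch1-/- over time, 0.5 between the lines at day 0 and 0.2 at day 6; each 0.4 or 0.5 after adjustment over the 4). With 3 libraries against 3, the smallest p this test can give is 0.1. The members under 10 CPM gave another picture: their mean share was 0.261% in wild type at day 0, 0.225% in wild type at day 6, 0.223% in Notch1-/- at day 0 and 0.208% in Notch1-/- at day 6. This share did not overlap over time in wild type or between the lines on either day (exact permutation p = 0.1 each, 0.133 after adjustment over the 4), and it overlapped over time in Notch1-/- (p = 0.4). On the deposited FPKM, which divide by length, members took 22.4% to 30.4% of the summed values of a library. In Notch1-/- this share was 30.4%, 24.4% and 29.8% at day 0 and 23.6%, 22.4% and 22.9% at day 6, a difference of -5.22 percentage points with no overlap (exact permutation p = 0.1, 0.4 after adjustment).

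The members with the highest level per kilobase passed none of the 5 tests of change described below. XLOC_003889 (chr10:29418540-29419189, mm9), 162866 bases upstream of Rspo3, had 1765 CPM per kilobase over the 12 libraries. XLOC_023645 (chr3:24231957-24232510), 124590 bases upstream of Naaladl2, had 1465 CPM per kilobase. XLOC_030997 (chr6:99827597-99828924), 151210 bases upstream of Prok2, had 1380 CPM per kilobase and the highest mean of all members, 1833 CPM. The other 2 of the leading 5, XLOC_001913 and XLOC_001791, had 1374 and 1263 CPM per kilobase. The nearest genes of these 5 were far lower: the highest group mean among them was 69.8 CPM, for Rspo3 in wild type at day 6, and Prok2 had 0.401 CPM in wild type at day 0. For XLOC_030997 the libraries read 1605, 2053 and 1680 CPM in wild type at day 0, then 1777, 1905 and 1709 CPM at day 6. Its Notch1-/- libraries read 1774, 2140 and 2130 CPM at day 0, then 1838, 1781 and 1599 CPM at day 6, and all groups overlapped.

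The share of members with an annotated pseudogene in the same gene interval was higher among abundant members. Each member was placed between its nearest linked genes on either side, and RefSeq (build GRCm38.p6, used only for gene order) was searched for pseudogenes between the same genes. Such flanks, no more than 300000 bases apart, were found for 6397 members. At least 1 pseudogene lay there for 43.7% of 4490 members under 0.1 CPM and for 46.7% of 1555 members from 0.1 to 1 CPM. The share was 76.7% of 219 members from 1 to 10 CPM, 97.9% of 95 members from 10 to 100 CPM and 97.4% of 38 members at 100 CPM or more. The intervals searched differed less, with medians of 86295 bases for the thinnest members and 126152.5 bases for the most abundant. This is a description of gene order: it does not place a member on a pseudogene.

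**Figure D2:**
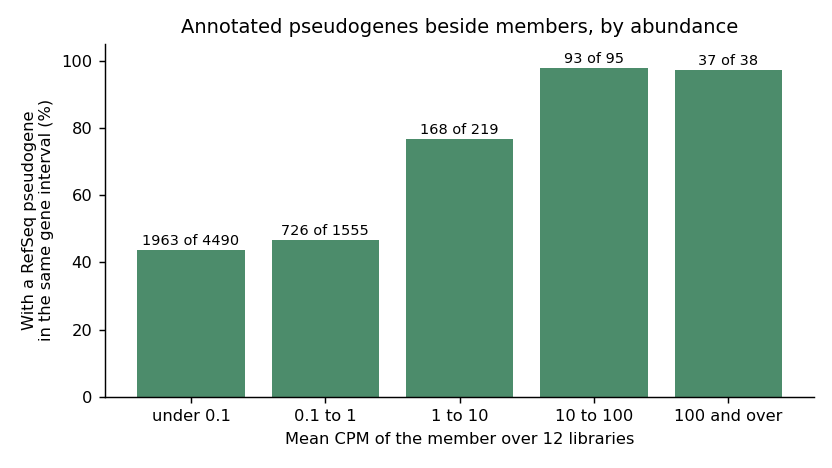
Share of members (y axis, %) with at least 1 RefSeq pseudogene between the same flanking genes, by mean CPM over 12 libraries (x axis); numbers above the bars are members with a pseudogene of all members so flanked. The share is 43.7% under 0.1 CPM and 97.4% at 100 CPM or more.

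Of the 133 members with at least 10 CPM and such flanks, 63 had exactly 1 pseudogene in the interval, and for 51 of these the pseudogene matched a protein-coding transcript. Among the parents were genes of ribosomal proteins (Rps29, Rpl39, Rps24), of histone chaperones (Set, Nap1l1) and of metabolism (Odc1, Sord, Fdps). XLOC_038262 (chr9:81570900-81572456) lay with Gm9531, which matched Set over 775 bases at 100% identity. XLOC_002014 lay with Gm4204, a 99.5% match to Nap1l1, and XLOC_003911 with Gm6477, a 96.0% match to Npm1. Npm1 encodes a nucleolar protein. Levels of members paired with so close a copy are uncertain, since the counting may split or misplace their reads.

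The member beside Tdgf1-ps1, XLOC_014305 (chr16:3730117-3731136), fell over time in wild type and not in Notch1-/-. Tdgf1 encodes Cripto, a Nodal co-receptor of undifferentiated cells. The member read 538, 480 and 409 CPM in wild type at day 0, then 60.5, 56.8 and 79.1 CPM at day 6, a fall with no overlap (log2 fold change -2.86, SE 0.20). In Notch1-/- it read 377, 400 and 319 CPM at day 0, then 408, 371 and 257 CPM at day 6, and these libraries overlapped (-0.08, edgeR adjusted p = 0.765). The change over time differed between the lines by 2.78 on the log2 scale (edgeR adjusted p = 0.00016). The locus linked to Tdgf1 itself had a mean of only 0.225 CPM but a deposited mean of 285 FPKM, against 244 FPKM for the member, and 93.0% of its exon bases were shared with another locus, so its count is not a measure of Tdgf1.

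Other members of this kind moved as follows. XLOC_028415 (chr5:29864506-29865192), beside the Dppa5a copy Gm6083, read 91.0, 87.7 and 75.2 CPM in wild type at day 0, then 20.1, 22.1 and 21.8 CPM at day 6. Its Notch1-/- libraries read 88.0, 104 and 88.5 CPM at day 0, then 28.8, 35.9 and 23.7 CPM at day 6. It fell in both lines with no overlap, by 1.99 and 1.67 on the log2 scale; Dppa5a is an RNA-binding protein gene of pluripotent cells. XLOC_002083 (chr1:155466607-155467860), beside the Sord copy Gm6652, read 29.0, 15.8 and 18 CPM in wild type at day 0, then 7.51, 7.30 and 9.82 CPM at day 6, with no overlap. Sord encodes sorbitol dehydrogenase, and the locus linked to it read 54.4, 24.6 and 38.8 CPM and then 13.2, 12.4 and 18.1 CPM. The fold changes were close, at -1.35 (SE 0.28) for the member and -1.43 (SE 0.31) for the Sord locus.

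Where a parent gene had a countable locus of its own, member and parent mostly moved by similar amounts. There were 27 such pairs with at least 1 mean CPM at the parent and at least 90% identity of the copies. Over time in wild type, 21 of 27 pairs had log2 fold changes within 0.25 of each other, with a Pearson correlation of 0.477 and a Spearman correlation of 0.702 across pairs. Among the 19 pairs whose parent shared no exon base with another locus, 15 were within 0.25 and the Pearson correlation was 0.804. The widest gap was at XLOC_006197, whose fold change was 0.00 beside 3.66 for Polr2c, a parent with 48.7% of its exon bases shared. In this comparison 24 of the 27 pairs changed in the same direction. Between the lines, 22 pairs at day 0 and 21 at day 6 were within 0.25. The Pearson correlations there were lower, at 0.365 and 0.400 over the 27 pairs and 0.422 and 0.630 over the 19. Members from 10 to 100 CPM had a median absolute log2 fold change of only 0.29 over time in wild type, so a small gap between member and parent is not particular to these pairs. Both loci of a pair were read from the same libraries, and reads may be split between them, so these figures are descriptions.

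**Figure D3:**
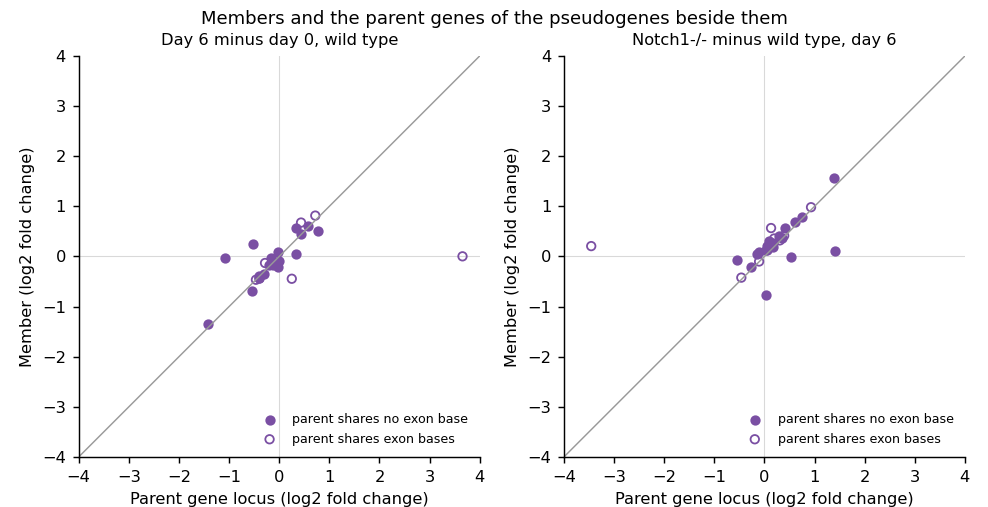
Log2 fold change of the parent gene's locus (x axis) and of the member beside its pseudogene (y axis) for 27 pairs, over time in wild type (left) and between the lines at day 6 (right); open points are parents that share exon bases with another locus, and the line marks equal change. Of the 27 pairs, 21 lie within 0.25 of the line in each panel.

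For the tests of change, 4994 members (50.8%) had enough counts; the other 4837 had at most 0.555 mean CPM and were not tested. Among known loci 61.2% were tested. Counts of called members below are read beside the share called among all 23991 loci tested with edgeR's quasi-likelihood test at an adjusted p under 0.05. The comparisons over time and between lines share groups of libraries with each other. Members named below for the size of a pairwise change were picked among called members whose libraries did not overlap in that comparison. Their lack of overlap there was fixed by the choice and adds no support.

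Over 6 days in wild type, members fell more often than they rose. Called higher were 608 of 4994 tested members (12.2%), beside 18.4% of all loci tested, and called lower were 1138 (22.8%), beside 24.6% of all loci. The median log2 fold change of members was -0.31, beside -0.12 over all loci. In Notch1-/- over the same days 505 members rose (10.1%, beside 17.1% of all loci) and 813 fell (16.3%, beside 18.6%), with medians of -0.15 and -0.02. The share of rising members lay below the background in both lines, and that of falling members lay near it. Spliced intergenic loci leaned further the same way. Of those tested 10.6% rose and 37.4% fell in wild type (median -0.89), and 10.8% and 30.5% in Notch1-/- (median -0.45). Feeder fibroblast genes fell as well: 13 of 19 in wild type and 18 of 19 in Notch1-/- were called lower, while 2 in wild type and 0 in Notch1-/- were called higher. Of the 813 members that fell in Notch1-/-, 30.5% ordered the 3 libraries of day 0 as the feeder genes do, beside 20.3% of all members tested; in wild type these shares were 19.0% and 16.6%. The part of feeder RNA in these falls was not tested.

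The largest rise in wild type was at XLOC_022079 (chr2:147762521-147769600, 7080 bases), 98988 bases downstream of Foxa2, which encodes a transcription factor of endoderm and midline cells. In wild type it read 0, 0.0170 and 0 CPM at day 0, then 5.49, 7.97 and 14.7 CPM at day 6. The Notch1-/- values were 0.664, 0.0264 and 0.010 CPM at day 0, then 7.34, 0.983 and 4.70 CPM at day 6. The days did not overlap in either line. The wild-type counts were 2 and 3325, a ratio of 1740 (95% interval 481 to 14374, counting error only), and the log2 fold change in Notch1-/- was 4.22 (SE 1.09, adjusted p = 0.00961). Foxa2 itself rose in both lines, by 5.22 and 5.23 on the log2 scale, from means of 0.493 and 0.753 CPM to 18.3 and 28.2 CPM.

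XLOC_024039 (chr3:128950101-128967333) was 17233 bases long and lay 1245 bases downstream of Enpep, the gene of an aminopeptidase that cleaves angiotensin peptides. It read 0.256, 0.0341 and 0.0759 CPM in wild type at day 0, then 3.32, 3.33 and 3.41 CPM at day 6. Notch1-/- libraries read 0.0694, 0 and 0.010 CPM at day 0, then 2.02, 1.97 and 0.700 CPM at day 6. It rose in both lines without overlap, by 4.74 (SE 0.77) and 5.87 (SE 0.90), and Enpep rose by 3.73 and 1.73. XLOC_017500 (chr18:11043805-11044863), 59 bases downstream of the noncoding gene 1010001N08Rik, read 0.0293, 0.0767 and 0.0169 CPM and then 4.31, 3.82 and 3.00 CPM in wild type, with no overlap. It rose by 6.48 (SE 0.55) in wild type and its neighbour by 6.04. In Notch1-/- XLOC_017500 read 0.0298, 0.0440 and 0.0602 CPM and then 1.07, 0.788 and 0.424 CPM. XLOC_006515 (chr11:83660437-83662461), 99 bases downstream of a known locus not linked to a symbol, rose by 5.28 (SE 0.61) in wild type and 4.11 (SE 0.61) in Notch1-/-, while that known locus had a mean of 0.0170 CPM or less in each group. XLOC_009858 (chr13:56851401-56855737), 7661 bases downstream of Smad5, a gene of BMP signalling, rose by 4.46 (SE 0.72) in Notch1-/-, beside 0.78 for Smad5. In wild type XLOC_009858 was higher at day 6 as well, with 0.0220, 0.0597 and 0.0759 CPM and then 0.687, 1.13 and 1.66 CPM.

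Among members that fell, XLOC_004006 (chr10:60509613-60512624), inside the limits of a known locus with no linked symbol, read 2.58, 3.23 and 2.57 CPM and then 0.0745, 0.0846 and 0.128 CPM in wild type. In Notch1-/- it read 4.53, 4.51 and 2.91 CPM and then 0.0990, 0.25 and 0.208 CPM. The days did not overlap in either line, the fold changes were -4.85 (SE 0.41) and -4.41 (SE 0.39), and the known locus around it changed by -4.88 and -4.45. XLOC_002032 (chr1:138496369-138504505) and XLOC_026022 (chr4:12051487-12052401) fell by 3.80 and 3.53 in wild type on the log2 scale. They too lay inside known loci, but these changed by -0.71 and 0.96, so the second member and its surroundings moved in opposite directions. The longest tested member, XLOC_028366 (chr5:16134560-16153173, 18614 bases), 5919 bases downstream of Hgf, the hepatocyte growth factor gene, ran from 0.307 to 4.41 CPM over the day 0 libraries and from 0 to 0.0223 CPM over those of day 6. The tested member farthest from any known locus, XLOC_001936, lay 1748921 bases from the nearest and stayed between 0.0248 and 0.130 CPM in all libraries.

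Between the lines at day 0, 190 members were higher in Notch1-/- (3.80%, beside 3.64% of all loci) and 321 were lower (6.43%, beside 5.72%), close to the background in both directions. These counts moved when 1 library was left out, which also raised the number of members tested. Without replicate 2 of wild type at day 0, 386 and 736 of 6118 members were called higher and lower. Without replicate 1 of Notch1-/- at day 0, 301 and 499 of 6182 were. Without replicate 2 of Notch1-/- at day 0, 182 of 6165 were lower. At day 6, 470 members were higher in Notch1-/- (9.41%, beside 13.6%) and 634 were lower (12.7%, beside 14.4%). Marker lists of differentiated and feeder cells moved with this comparison. Called lower in Notch1-/- at day 6 were 5 of 8 cardiac and mesoderm genes, 6 of 7 visceral endoderm genes, 6 of 7 endothelial and blood genes and 8 of 19 feeder genes, and called higher were 2 feeder genes and 3 of 7 pluripotency genes. The pluripotency genes called higher included the locus linked to Tdgf1, whose count is not a measure of Tdgf1. The cardiac and mesoderm genes summed to 672 to 1077 CPM in wild type and 188 to 575 CPM in Notch1-/- at day 6. Visceral endoderm genes summed to 326 to 406 and 24.7 to 54.8 CPM, and endothelial and blood genes to 192 to 345 and 39.2 to 57.0 CPM. Their part in the members' calls was not tested. Without wild-type replicate 1 or 2 of day 6, 308 of 6129 and 295 of 6188 members tested were called higher.

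Some members were read almost only in wild type. XLOC_026036 (chr4:15276043-15288379, 12337 bases), 62142 bases downstream of Tmem64, read 3.06, 4.94 and 6.00 CPM in wild type at day 0 and no count in any Notch1-/- library at day 0. Against a floor of 3 counts over those libraries, it was at least 481-fold lower in Notch1-/-. It was lower at day 6 too, with 0.323, 0.525 and 0.539 CPM in wild type and 1 count in all in Notch1-/-, a ratio of 172 (95% interval 30.5 to 6839). Tmem64 was lower in Notch1-/- at day 0 by 2.28 on the log2 scale. XLOC_016549 (chr17:82938567-82938778, 212 bases), 675844 bases from Pkdcc, read 2.17, 5.04 and 3.59 CPM in wild type and 0, 0.00879 and 0.0301 CPM in Notch1-/- at day 0, with no overlap (log2 fold change -8.02, SE 0.65). XLOC_013232 (chr15:68707161-68707573) had 573 counts in wild type and 1 in Notch1-/- at day 0, a ratio of 483 (95% interval 86.4 to 19129). XLOC_023614 (chr3:8329523-8330253) was lower by 6.43 on the log2 scale, beside -0.21 for the known locus nearest to it, which did not pass. On the deposited FPKM it differed less, with 4.98, 7.6 and 6.70 FPKM in wild type and 2.49, 2.98 and 2.57 FPKM in Notch1-/- at day 0 (-1.22 by limma on log2(FPKM + 0.1)).

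The members named for a lower level in Notch1-/- at day 6 had no count there at all. XLOC_028585 (chr5:67888285-67894750) and XLOC_028586 (chr5:67895179-67898981) neighbour each other inside the limits of the locus C330024D21Rik, so they are not independent. XLOC_028585 read 4.62, 3.95 and 3.68 CPM in wild type at day 6 and was at least 509-fold lower in Notch1-/-, and XLOC_028586 was at least 294-fold lower. C330024D21Rik itself was lower by 7.37 on the log2 scale at day 6, from a mean of 53.9 to 0.322 CPM. XLOC_028730 (chr5:109444187-109444801) and XLOC_017783 (chr18:86017579-86017780) were at least 303-fold and 265-fold lower. Their nearest known loci, Vmn2r10 and Neto1, were at or under 0.0959 mean CPM in every group. XLOC_028730 had no count in Notch1-/- at day 6 but deposited values of 0.318, 0.574 and 0.419 FPKM there, against 4.11, 4.28 and 4.47 FPKM in wild type.

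Other members were read almost only in Notch1-/-. XLOC_009879 (chr13:61897250-61903769, 6520 bases) read 0.0220, 0 and 0.0338 CPM in wild type and 8.77, 5.12 and 4.88 CPM in Notch1-/- at day 0, and 1 count in all in wild type at day 6 beside 1.48, 1.79 and 1.33 CPM in Notch1-/-. The lines did not overlap on either day (day 0 log2 fold change 8.30, SE 0.63). XLOC_023909 (chr3:93146008-93158622, 12615 bases) was higher by 7.30 (SE 0.57) at day 0 and 7.03 (SE 0.59) at day 6. Both lay inside known loci without a linked symbol, which were higher by 1.04 and 1.89 at day 0. XLOC_021646 (chr2:23445983-23446336), 18333 bases upstream of Spopl, was higher by 6.39 (SE 0.54) at day 0 and 6.99 (SE 0.61) at day 6, beside 0.46 and 0.04 for Spopl, neither of which passed. XLOC_023935 (chr3:100113783-100114256) was higher by 6.45 (SE 0.54) at day 0, with Notch1-/- libraries spread from 4.54 to 18.2 CPM.

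XLOC_001616 (chr1:7167582-7169836, 2255 bases), 3872 bases downstream of Pcmtd1, had the highest mean of the members named for a higher level in Notch1-/-. It read 0.805, 0.494 and 1.44 CPM in wild type at day 0, then 0.0911, 0.127 and 0.145 CPM at day 6. Its Notch1-/- libraries read 31.7, 33.6 and 28.2 CPM at day 0, then 54.3, 57.2 and 54.9 CPM at day 6. On counts the lines did not overlap on either day, and the days moved in opposite directions in the lines without overlap. At day 6 it was higher in Notch1-/- by 8.83 on the log2 scale (SE 0.41), beside -0.30 for Pcmtd1, which did not pass. The deposited FPKM of the same libraries were far closer. They read 14.1, 12.8 and 18.4 FPKM in wild type and 20, 18.1 and 18.5 FPKM in Notch1-/- at day 0, where the lines overlapped. At day 6 they read 12.1, 12.2 and 11.5 FPKM against 33, 34.7 and 34.6 FPKM, a difference of 1.51 by limma on log2(FPKM + 0.1). Why the deposited scales differ was not tested.

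**Figure D4:**
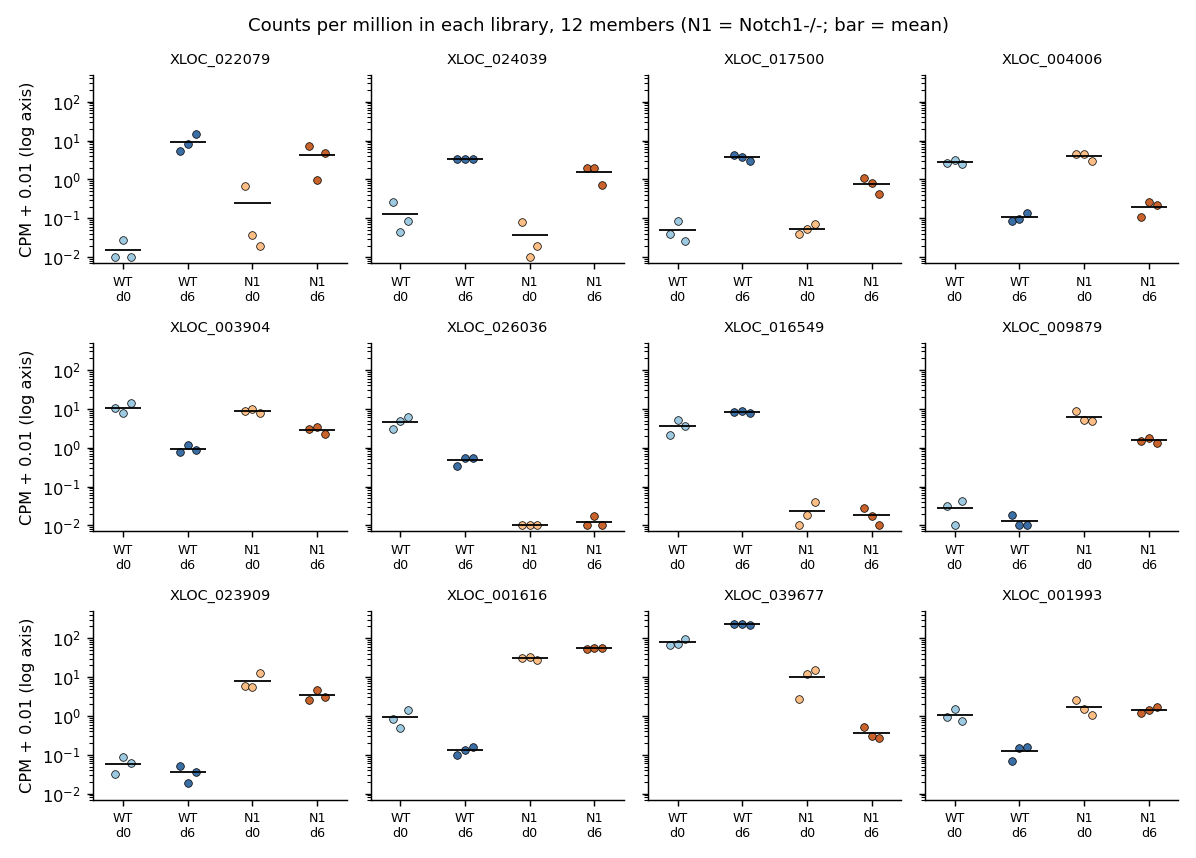
Level of 12 members in each of the 12 libraries (y axis, CPM plus 0.01, log axis); points are libraries, bars are group means, blue is wild type and orange is Notch1-/- (N1), light is day 0 and dark is day 6. XLOC_022079 is at or under 0.664 CPM at day 0 and at or above 0.983 CPM at day 6, while XLOC_026036 and XLOC_016549 are near 0 in Notch1-/- on both days.

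The test of whether the change over time differed between the lines called 153 members with a more positive change in Notch1-/- (3.06%, beside 6.23% of all loci) and 97 with a more negative one (1.94%, beside 4.89%). Both shares lay below the background. The counts moved with single libraries, and the fits with 1 library left out tested 5850 to 6251 members. Without wild-type replicate 2 or 3 of day 0, 232 and 95 members had a more positive change, without wild-type replicates 1, 2 and 3 of day 6 in turn 72, 59 and 88, without Notch1-/- replicate 2 of day 0 87, and without Notch1-/- replicates 2 and 3 of day 6 90 and 86. A more negative change was called for 53, 49 and 58 members without wild-type replicates 1, 2 and 3 of day 6, and for 56 without replicate 3 of Notch1-/- at day 0 or at day 6. XLOC_039677 (chrX:61749596-61751978), 219092 bases upstream of Slitrk4, read 68.1, 72.7 and 93.9 CPM and then 227, 234 and 222 CPM in wild type. The Notch1-/- values were 2.66, 11.9 and 15.4 CPM and then 0.504, 0.297 and 0.261 CPM. Feeder genes summed to 882, 2722 and 3780 CPM in the same Notch1-/- libraries of day 0, in the same order as the member, and to 128 to 173 CPM in those of day 6, and their part in this result was not tested. The difference was -6.37 (SE 0.69, edgeR adjusted p = 0.00026), beside -0.16 for Slitrk4, which did not pass.

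Other members with a more positive change in Notch1-/- were XLOC_001993 (chr1:134083888-134087076), 103 bases upstream of Lemd1, XLOC_038239 (chr9:76207306-76210404) and XLOC_006387 (chr11:56272868-56273897). XLOC_001993 read 0.922, 1.47 and 0.734 CPM and then 0.0580, 0.144 and 0.145 CPM in wild type, and 2.52, 1.54 and 1.03 CPM and then 1.18, 1.44 and 1.72 CPM in Notch1-/-. The difference for XLOC_006387 (3.01) no longer passed without wild-type replicate 1 or 2 of day 6 (adjusted p = 0.0521 and 0.0582 by edgeR). For XLOC_001993 the days were apart in wild type and overlapped in Notch1-/-, with a difference of 2.93 (SE 0.61), beside 1.97 for Lemd1. XLOC_003904 (chr10:33951472-33953422), 23672 bases upstream of Dse, fell from a mean of 10.8 to 0.920 CPM in wild type and from 8.71 to 2.82 CPM in Notch1-/-. Dse did not pass in wild type (-0.29). In Notch1-/- Dse went from a mean of 168 CPM (SD 15.1) at day 0 to 91.5 CPM (SD 4.69) at day 6.

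At a threshold of 0.5 CPM in all 3 libraries of a group, 826 members were detected in wild type at day 0, 905 in wild type at day 6, 815 in Notch1-/- at day 0 and 804 in Notch1-/- at day 6. Of 1145 members detected in any group, 626 were detected in all 4. Detected on both days in wild type and under 0.05 CPM in every Notch1-/- library were 4 members: XLOC_009937, XLOC_013232, XLOC_016549 and XLOC_039560, 212 to 421 bases long. The reverse pattern was found for 7 members, among them XLOC_009879 and XLOC_028625 (chr5:83802573-83811730). The latter had no count in wild type and means of 1.79 CPM at day 0 and 0.725 CPM at day 6 in Notch1-/-. XLOC_013237 (mean 1.43 CPM) and XLOC_035868 (mean 0.629 CPM) were detected in wild type at day 6 with every library of the other groups under 0.05 CPM. These names were chosen after their values were seen. Detection was counted for members only, so whether these counts are unusual beside other loci was not tested.

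Calls varied with length, position and level. Over time in wild type, 28.5% of tested members of 4000 bases or more were called lower and 18.8% higher. Of those under 500 bases 12.9% were lower and 9.88% higher, beside 24.6% and 18.4% of all loci tested. Members under 1000 bases from a known locus split evenly, with 14.0% higher and 13.6% lower, whereas from 20000 to under 100000 bases 12.1% were higher and 26.6% lower. In Notch1-/- the nearest class rose more than it fell, with 15.3% higher and 9.55% lower. By level, 36.8% of tested members from 0.1 to 1 CPM were called in wild type over time, against 16.3% of those at 100 CPM or more. At day 6, of the 86 at 100 CPM or more, 17 were higher in Notch1-/- (19.8%) and 3 lower (3.49%), beside 13.6% and 14.4% of all loci. Of the 201 from 10 to 100 CPM, 35 were higher (17.4%) and 7 lower (3.48%). These shares are descriptions, with no test between classes.

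Called members tended to move with the nearest known locus, the more so the nearer it was. Over time in wild type, 1574 called members had a tested known neighbour, which was called in the same direction for 53.6% and in the opposite direction for 9.85%. Beside members that were not called, 41.9% of neighbours were called. For members inside a known locus 71.0% moved the same way and 5.33% the opposite way, and outside it under 1000 bases 65.9% and 3.41%. At 100000 bases or more the shares were 27.2% and 20.4%, near even. The same fall with distance was seen in Notch1-/- over time, from 64.4% inside a known locus to 23.0% at 100000 bases or more, and between the lines at day 6, from 54.0% to 14.6%.

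Neither side of a known locus had the higher share moving with the neighbour at every distance. Under 1000 bases and over time in wild type, 102 of 158 called members on the 5′ side moved with their neighbour (64.6%), and 33 of 46 on the 3′ side did (71.7%). On these sides 6 and 1 members moved the opposite way. The shares moving with the neighbour on the 5′ and 3′ sides were 56.9% and 55.8% from 1000 to under 5000 bases. They were 52.7% and 42.2% from 5000 to under 20000 bases, and 43.7% and 53.0% from 20000 to under 100000 bases. At 100000 bases or more they were 31.7% and 22.5%. Several members can share a neighbour, as 4346 member and neighbour pairs held 2760 known loci, and both were read from the same libraries, so no test is given.

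**Figure D5:**
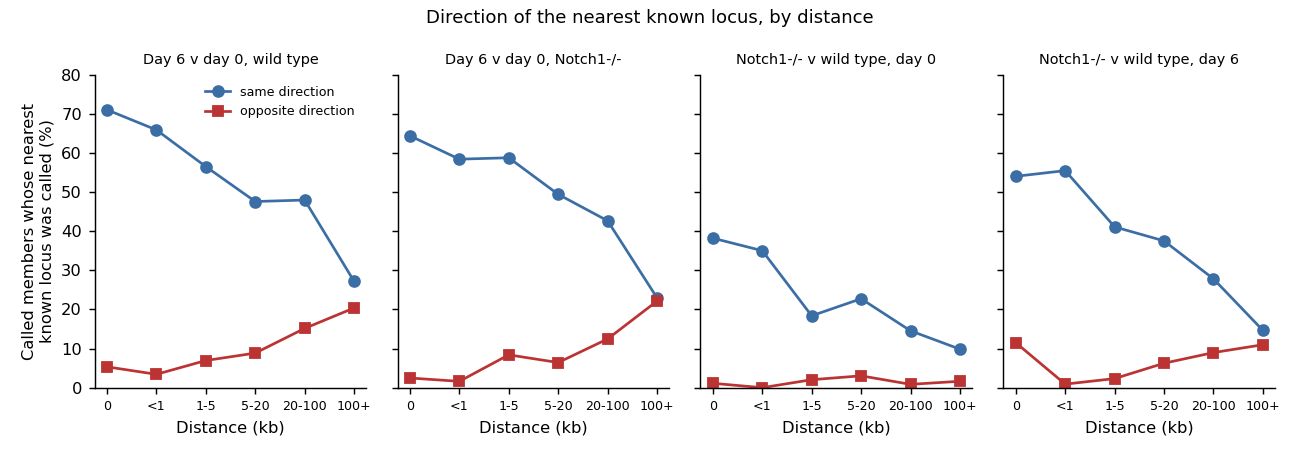
Share of called members (y axis, %) whose nearest known locus was called in the same direction (circles) or the opposite direction (squares), by distance to it (x axis, kb), in 4 comparisons. Over time in wild type the same-direction share falls from 71.0% for members inside a known locus to 27.2% at 100 kb or more, and the opposite share rises from 5.33% to 20.4%.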

How the data were processed

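Libraries of poly(A)-selected RNA were read in pairs of 100 bases, as the labels' protocols state. TopHat2 2.0.8, Cufflinks 2.1.1, HTSeq 0.5.4p3, DESeq and build mm9 are named in the submitters' processing notes. Not given in the sources used here are their roles and how the counting treated strand and multiple alignments. Deposited by the authors were raw counts per merged locus for the 12 libraries, FPKM values for the same loci (scaled for length and depth), and merged transcript models in mm9, 1-based.

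Members and lists were chosen with earlier results of these data known. Known loci took gene symbols by matching runs of exon and intron lengths to GENCODE M21 on the same chromosome, with no coordinate conversion: 15872 of 40039 loci matched 1 gene, and the same search on the next chromosome matched 5. Counts were fitted with edgeR 4.0.16 (R 4.3.3; TMM, filterByExpr, robust quasi-likelihood, a mean per group over all 12 libraries), Benjamini-Hochberg adjusted over 23991 loci. TMM factors ran from 0.908 to 1.14. Pseudogenes were matched to protein-coding transcripts with blastn 2.17.0 (e-value 1e-20). DESeq2 1.42.0, limma 3.58.1 on log2(FPKM + 0.1), upper quartile scaling, no count filter, a replicate block and leaving out each library were tried as alternatives. On simulated counts the test was checked for recovery of known changes.

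Named loci were Notch1, the 5 members with the highest level per kilobase, up to 4 higher and 4 lower called members per comparison with the largest fold change (mean log2 CPM of at least 0 and, in pairwise comparisons, no overlap of libraries), the longest and the farthest tested member. By deviations from group means, same-numbered libraries of the lines at day 0 correlated at 0.398, 0.275 and 0.165. In the other 3 comparisons tested between groups not every correlation passed 0.1. Same-numbered libraries of wild type at day 0 and Notch1-/- at day 6, groups not compared here, correlated at 0.227, 0.180 and 0.125. Libraries of unlike number were not correlated, so these values cannot show pairing. Some named values are not reported here.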

Additional observations from a re-analysis of the deposited data

Results flagged for a closer look

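The change over 6 days differed between the lines, by the test of that difference, for 10 named members. Values are Notch1-/- minus wild type on the log2 scale. The difference was more positive in Notch1-/- for XLOC_001616 on chromosome 1 (3.74), XLOC_038239 on chromosome 9 (3.54), XLOC_006387 on chromosome 11 (3.01), XLOC_001993 on chromosome 1 (2.93) and XLOC_003904 on chromosome 10 (1.92). It was more negative for XLOC_016603 on chromosome 17 (-8.18), XLOC_039677 on chromosome X (-6.37), XLOC_028730 on chromosome 5 (-6.33), XLOC_028585 on chromosome 5 (-6.05) and XLOC_011722 on chromosome 14 (-4.99). For XLOC_028730 and XLOC_028585, which had no count in Notch1-/- at day 6, the fitted difference depends on the prior count and is no bound. At day 0 their means in Notch1-/- were already 0.102 and 0.0684 CPM, against 2.98 and 4.00 CPM in wild type. In wild type at day 6 their means were 2.44 and 4.08 CPM, so the lines were apart on both days. XLOC_016603 had means of 0.153 and then 3.98 CPM in wild type, and 0.158 and then 0.0126 CPM in Notch1-/-. XLOC_011722 had 86 counts in Notch1-/- at day 0 and 2 at day 6, a ratio of 51.1 with a 95% interval of 13.7 to 429 for counting error, and read 7.15 to 10.4 CPM in wild type on both days. That interval leaves out the spread between libraries. In Notch1-/- it read 0.0198, 0.387 and 0.401 CPM at day 0, then 0.00900, 0 and 0.00745 CPM at day 6. Feeder genes summed to 882, 2722 and 3780 CPM in the same Notch1-/- libraries of day 0, in the same order as the member. Their part in this result was not tested. The difference for XLOC_028730 (edgeR adjusted p = 0.0444) passed without wild-type replicate 2 or Notch1-/- replicate 1 of day 0, and missed the threshold when any of the other 10 libraries was left out (adjusted p from 0.0688 to 0.0965).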

How the results depend on the processing

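All named members kept the direction of their fold changes under every alternative. With limma on log2(FPKM + 0.1), 4 of 40 no longer passed: XLOC_028585 over time in Notch1-/- (-0.09) and in the difference of changes (-0.11), XLOC_011722 over time in Notch1-/- (-0.70) and XLOC_028730 in the difference of changes (-0.65). That alternative tested 2382 members. It called 339 higher and 546 lower over time in wild type, 228 and 325 in Notch1-/-, 122 and 212 between the lines at day 0 and 297 and 368 at day 6. DESeq2, fitted to 9818 members without edgeR's count filter, called 359 higher and 535 lower between the lines at day 0 and 179 with a more negative difference of changes. The FPKM split of that difference was 51.0% positive, against 61.2% for counts. For limma and DESeq2 the shares of all loci called are not given here, so their counts of called members have no background beside them. The share of FPKM at members differed by -0.517 percentage points between the lines at day 6, against 0.238 for counts; the cause was not tested. Counting any locus as a neighbour put 3600 members at 1 base to under 1000 bases, against 1162.

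With 1 library left out, the counts ran from 476 to 780 higher and 888 to 1421 lower over time in wild type, 353 to 657 and 598 to 1068 in Notch1-/-, 138 to 386 and 182 to 736 between the lines at day 0, 295 to 637 and 454 to 820 at day 6, and 59 to 232 and 49 to 142 for the difference of changes. These fits tested 5850 to 6251 members, against 4994 with all libraries, so the counts do not share a base. The shares of all loci called in these fits are not given here. For that difference the lowest counts were without wild-type replicate 2 of day 6. With the replicate block, 231 members were higher and 408 lower between the lines at day 0, and the block changed no call of a named member and moved no member count by more than 1.5 times. The shares of all loci called with the block are not given here either. Upper quartile scaling moved the median fold change of all loci from -0.12 to -0.29 over time in wild type and from -0.02 to -0.18 in Notch1-/-, and the share of rising members among those called from 34.8% to 28.1% and from 38.3% to 30.6%. Among members under 10 mean CPM, an alternative added after seeing the data, 586 rose and 1103 fell over time in wild type. Depth limits the thin members: 4837 were not tested.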
